A study of Mus musculus with 13 samples.

Results

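The 9 genes described here are inhibitors of the cell division cycle and genes of the p53 pathway: Cdkn1a, Cdkn1b, Cdkn1c, Cdkn2a, Cdkn2b, Trp53, Mdm2, Ccng1 and Ccnd1. They were taken by symbol from the tables of counts and FPKM (counts scaled to gene length and to the library total), in which all 9 of 9 were found among 27141 genes, and all 9 were among the 19884 genes with enough counts to be tested. The cells were damaged hepatocytes (dHeps) from the livers of wild-type mice chronically injured with carbon tetrachloride, and every group shares this injury and a serum-free hepatocyte maintenance medium. For 16 days they were cultured with the solvent DMSO, with 5 compounds together (5C), or with 4 of these. The compounds were GSK429286A (G, a ROCK inhibitor), CID755673 (C, a protein kinase D inhibitor), ETC-1002 (E, an AMPK activator), Salidroside (S, a glycoside from plants) and forskolin (F, which turns on adenylate cyclase), so that 5C-G is 5C without GSK429286A, and likewise for 5C-C, 5C-E, 5C-F and 5C-S. There were 13 libraries in 7 groups, 2 in each except 5C-S, which had 1. Libraries carry the running number of their column, and these numbers pair nothing across groups. No group of uninjured hepatocytes was analysed here, and the study calls its replicates biological ones without saying whether the libraries of a group came from different mice or different cultures. The p-values set the difference between groups against the spread between libraries. This spread was estimated over all 7 groups together, although their pairs were unequally far apart.

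Passage from G1 into S phase is driven by D-type cyclins such as cyclin D1 (Ccnd1) with their kinases Cdk4 and Cdk6, which inactivate the retinoblastoma protein. Members of the INK4 family (p16Ink4a from Cdkn2a, p15Ink4b from Cdkn2b) block Cdk4 and Cdk6, and members of the CIP/KIP family (p21 from Cdkn1a, p27 from Cdkn1b, p57 from Cdkn1c) block cyclin-kinase complexes more widely. The tumour suppressor p53 (Trp53) switches on Cdkn1a, Ccng1 (cyclin G1) and Mdm2, the last of which marks p53 for degradation in a feedback loop. High p16 and p21 are widely used as signs of senescence, and in injured liver they accompany hepatocytes that no longer divide.

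Cdkn2a and Cdkn2b are neighbours on chromosome 4 (GRCm39, minus strand, chr4:89192708-89212890 and chr4:89223204-89229276), with 10313 bases between them. Cdkn2a has a pair of start sites: the upstream one makes p19Arf, which holds Mdm2 in check, and the downstream one makes p16Ink4a. The tables give 1 count for the whole gene, so these products cannot be told apart here. Promoter sequences from RefSeq were placed on GRCm39 by exact match, each with 1 match on its chromosome, and are shown from base -250 to base -36 of the start for the 3 inhibitor genes that were highest in 5C-G, with motif matches in capitals. Both strands were searched for GGGCGG (the Sp1 core), TGACGTCA (the cAMP response element), TTTCGCGC (an E2F site) and the p53 half-site, a motif of 10 letters. Among 32851 promoter windows of 215 bases, 27.7% held GGGCGG, 1.1% held TGACGTCA, 0.216% held TTTCGCGC and 6.19% held a p53 half-site. 
Cdkn2a, downstream start, chr4:89200465-89200679, minus strand: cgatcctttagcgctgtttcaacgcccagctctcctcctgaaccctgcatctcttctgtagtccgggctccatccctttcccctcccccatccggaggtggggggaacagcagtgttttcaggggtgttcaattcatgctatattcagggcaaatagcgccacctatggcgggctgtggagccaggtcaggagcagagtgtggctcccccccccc
Cdkn2a, upstream start, chr4:89212892-89213106, minus strand: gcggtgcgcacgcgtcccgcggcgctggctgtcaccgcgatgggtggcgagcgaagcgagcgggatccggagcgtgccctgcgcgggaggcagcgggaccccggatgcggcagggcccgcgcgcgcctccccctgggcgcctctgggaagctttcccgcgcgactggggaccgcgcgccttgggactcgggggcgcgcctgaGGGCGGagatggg
Cdkn2b, chr4:89229305-89229519, minus strand: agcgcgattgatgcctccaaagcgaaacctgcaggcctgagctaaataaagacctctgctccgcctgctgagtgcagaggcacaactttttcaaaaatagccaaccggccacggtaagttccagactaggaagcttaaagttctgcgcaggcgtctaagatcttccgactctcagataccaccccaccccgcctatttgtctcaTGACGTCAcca
Cdkn1a, upstream start, chr17:29309703-29309917, plus strand: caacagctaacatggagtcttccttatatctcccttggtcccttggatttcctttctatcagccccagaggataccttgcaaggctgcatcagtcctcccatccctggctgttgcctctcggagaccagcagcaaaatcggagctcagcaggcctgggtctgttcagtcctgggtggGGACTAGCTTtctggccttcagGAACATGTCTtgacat
Cdkn1a, downstream start, chr17:29312493-29312707, plus strand: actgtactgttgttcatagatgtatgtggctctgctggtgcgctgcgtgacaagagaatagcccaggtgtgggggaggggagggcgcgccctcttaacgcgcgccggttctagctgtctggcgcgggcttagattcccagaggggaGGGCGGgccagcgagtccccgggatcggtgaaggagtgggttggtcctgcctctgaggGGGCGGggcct
The capitals mark 1 GGGCGG before the upstream start of Cdkn2a, 1 TGACGTCA before Cdkn2b 2 p53 half-sites before the upstream start of Cdkn1a and 2 GGGCGG before its downstream start, where 0 p53 half-sites were found. The downstream Cdkn2a window held none of these motifs. The Cdkn2a windows differ in composition, with 59.5% G and C and 7 CpG before the downstream start against 78.6% and 35 CpG before the upstream one. A match describes the letters only. The windows of Ccng1, Mdm2 and Trp53 each held 1 p53 half-site.

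The other genes lie on chromosome 17 (Cdkn1a, chr17:29309936-29319701), 6 (Cdkn1b, chr6:134897364-134902476), 7 (Cdkn1c, chr7:143012069-143014806, and Ccnd1, chr7:144483668-144493662), 11 (Trp53, chr11:69469669-69482701, and Ccng1, chr11:40639377-40646148) and 10 (Mdm2, chr10:117524780-117546730), all protein-coding in GENCODE. The library kit does not mark strand, so reads in shared exons cannot be assigned between Trp53 and Wrap53, Ccng1 and Nudcd2, or Ccnd1 and LTO1, which overlap on opposite strands. Total counts per library ran from 30195867 to 45491932, and the lowest count of any of the 9 genes in any library was 324 (Cdkn1c), so counting error was small beside the spread between libraries. Both libraries of each pair differed by more than counting noise, with a chi-square per degree of freedom from 8.01 (DMSO) to 86.6 (5C-G), and the pairs of 5C-G, 5C-C (75.7) and 5C-F (62.9) stood furthest apart. The log2 fold changes of all genes showed a trend with GC content, with a Spearman rho across 19787 genes of -0.18 for 5C against DMSO and, for the removals against 5C, of 0.39 (5C-C), 0.33 (5C-G), 0.32 (5C-S), 0.31 (5C-E) and 0.24 (5C-F). Of the members, Cdkn1c (60.3% G and C in its longest transcript) and Cdkn2a (60.2%) are richer in GC than 97.3% and 97.1% of those genes, whereas Ccng1 (40.7%) and Cdkn1b (43.1%) are richer than 8.04% and 16.7%, beside a median of 49.1%. The fit was repeated with the offset of the counts set by GC content and by length, and these values are given where they changed the call of a member or moved a count over a gene list by over 1.5 times.

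The hepatocyte markers Alb, Ttr, Apoa1, Hnf4a, Tat and Cps1 were all detected in each of the 13 libraries, and their summed FPKM was 10480 to 11711 in DMSO, 10773 to 10809 in 5C, 6387 to 7693 in 5C-G, 4540 to 4948 in 5C-C, 3015 to 3509 in 5C-E, 17016 to 21411 in 5C-F and 6999 in 5C-S. Of these 6 markers, 4 fell and 1 rose in 5C-G and in 5C-C, 4 fell in 5C-E, 5 rose in 5C-F, and 1 fell in 5C against DMSO. The summed FPKM of 10 macrophage markers (Cd68, Adgre1, Csf1r, C1qa, C1qb, Clec4f, Marco, Lyz2, Ptprc and Cd5l) was 4708 to 4730 in DMSO, 478 to 560 in 5C, 4781 to 6763 in 5C-G, 933 to 1593 in 5C-C, 1526 to 1866 in 5C-F, 662 to 781 in 5C-E and 587 in 5C-S. Clec4f, which marks resident Kupffer cells, was listed at 0 in 5C library 1, 5C-E library 2 and the 5C-S library, and the other 9 markers were above 0 in every library. The sum of 5 endothelial markers was 77.9 to 89.3 FPKM in DMSO, 12.3 to 13.7 in 5C, 41.5 to 45.2 in 5C-G, 27.1 to 28.5 in 5C-E and 9.34 to 18.1 in the remaining groups, with Pecam1 and Cdh5 listed at 0 in 5C and 5C-F. The sums of 10 stellate cell and fibroblast markers ranged from 852 (5C-F) to 2316 FPKM (5C-G), and of these markers 1 rose and 2 fell in 5C against DMSO, 5 rose and 3 fell in 5C-G, 4 rose and 5 fell in 5C-C, 3 rose and 3 fell in 5C-E, and 3 fell in 5C-F. The sums of 5 cholangiocyte markers ranged from 1456 (5C-S) to 3422 FPKM (5C-F), and 1 rose and 1 fell in 5C against DMSO, 2 rose and 2 fell in 5C-G, 2 rose in 5C-C and 3 rose in 5C-F. The part of these cell types in the results that follow was not tested. In such bulk samples, fewer cells of a type and less RNA per cell cannot be told apart.

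Cdkn2a varied most among the 9 genes, with a 5.28-fold range between its lowest and highest library, followed by Ccnd1 with a 4.95-fold range. The range was 3.51-fold for Cdkn1b, 3.18-fold for Cdkn1c, 2.51-fold for Ccng1, 2.07-fold for Cdkn2b, 2.06-fold for Mdm2, 1.98-fold for Cdkn1a and 1.79-fold for Trp53, the least variable. On the FPKM scale, which allows for gene length, Ccng1 was the most abundant with a median of 129 FPKM over the libraries, and Cdkn1c the least with 8.82 FPKM. Cdkn1a, Cdkn2a and Cdkn2b had the same groups at the top of their order, 5C-G first and DMSO second, whereas Cdkn1b and Cdkn1c were highest in 5C.

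**Figure D1:**
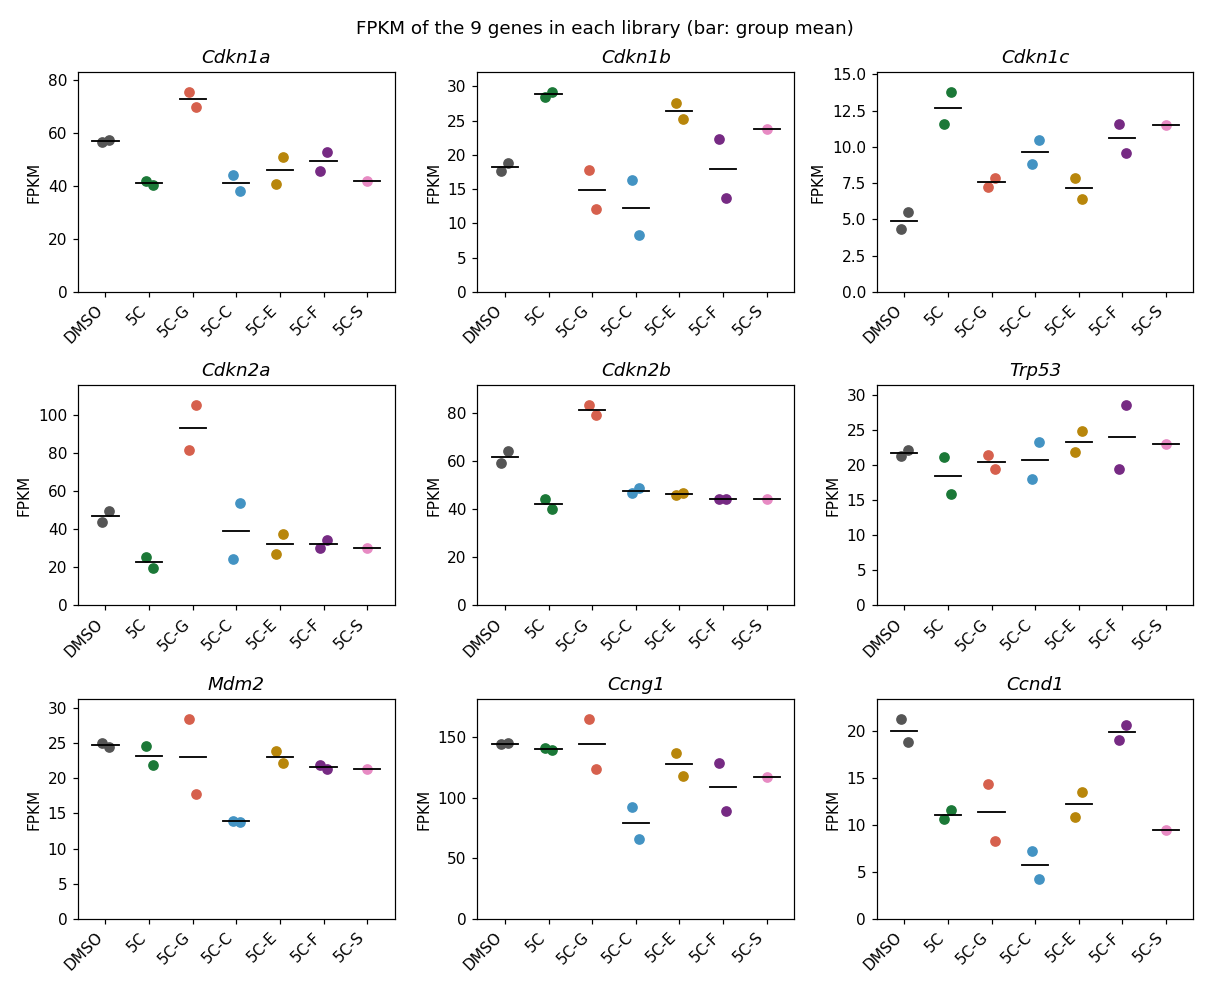
FPKM (vertical axis, linear from 0) of the 9 genes in the 13 libraries, 1 point per library and a bar at the mean of each group. Cdkn1a, Cdkn2a and Cdkn2b are highest in both 5C-G libraries, Cdkn1c is lowest in both DMSO libraries, and the group means of Mdm2 and Ccng1 are lowest in 5C-C.

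The first comparison asked which of these genes differed between 5C and its solvent after 16 days. Expression of the INK4 inhibitors Cdkn2a and Cdkn2b and of the cyclin gene Ccnd1 was lower in 5C, and that of the CIP/KIP inhibitor Cdkn1c was higher. Transcripts of Trp53, Mdm2 and Ccng1 did not pass the test. Thus 3 of the 9 genes fell, against 4.09% of all tested genes, and 1 rose, against 2.25%. With DESeq2, 5 of the 9 passed, and 2 did so with limma, with total counts only or with a log2 fold change beyond 1 required.

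Cdkn2a was at 44.0 and 49.7 FPKM in the DMSO libraries and at 25.4 and 19.9 FPKM in the 5C libraries. Both 5C libraries lay below both DMSO libraries, and the log2 fold change was -1.12 ± 0.30 (SE, 2.18-fold lower, adjusted p = 0.0293, edgeR's quasi-likelihood test with Benjamini-Hochberg adjustment, here and below). Cdkn2b was at 59.3 and 64.2 FPKM in DMSO and at 44.0 and 40.1 FPKM in 5C. The groups again did not overlap, with a smaller log2 fold change of -0.63 ± 0.16 (adjusted p = 0.0231). Neither gene passed when any 1 of the 4 libraries was left out, with an adjusted p of 0.103 to 0.295 for Cdkn2a and 0.138 to 0.26 for Cdkn2b, while the log2 fold changes stayed between -1.29 and -0.97 and between -0.68 and -0.57. With all libraries kept, Cdkn2a did not pass with limma (-1.02, adjusted p = 0.103) nor Cdkn2b with total counts only (-0.55, adjusted p = 0.0572). In the same comparison 9 of the 10 macrophage markers fell, and their part in these differences was not tested.

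Within the CIP/KIP family 1 of the 3 genes passed. Cdkn1c was at 4.34 and 5.49 FPKM in DMSO and rose to 11.6 and 13.8 FPKM in 5C, a log2 fold change of 1.30 ± 0.24 (2.46-fold, adjusted p = 0.00176). Without DMSO library 1 its adjusted p was 0.06, and without each of the other libraries in turn it was at most 0.0371. Cdkn1a, the p21 gene, was at 56.5 and 57.3 FPKM in DMSO against 41.7 and 40.4 FPKM in 5C. The groups did not overlap, but the log2 fold change of -0.55 ± 0.16 did not pass (adjusted p = 0.0579). Nor did it with limma (0.0925), no filter on low counts (0.0795) or total counts only (0.13). It passed with DESeq2 (0.00521), in a fit of the 2 groups alone (3.43e-05) and with the GC and length offset, which gave -0.44 (0.0493). With 1 library left out the log2 fold change was -0.55 to -0.54. Cdkn1b was at 17.7 and 18.8 FPKM in DMSO and at 28.5 and 29.2 FPKM in 5C, with a log2 fold change of 0.59 ± 0.27 (adjusted p = 0.261). Again the groups did not overlap, and it passed without the filter on low counts (0.0426) and in a fit of the 2 groups alone (3.51e-05).

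Ccnd1 was at 21.3 and 18.8 FPKM in DMSO and fell to 10.6 and 11.6 FPKM in 5C, a log2 fold change of -0.93 ± 0.23 (1.90-fold lower, adjusted p = 0.0207). Leaving out 1 library gave an adjusted p of 0.0752 to 0.224, and it did not pass with limma (-0.80, adjusted p = 0.116) or total counts only (-0.85, adjusted p = 0.0622). None of the 3 genes of the p53 arm passed in the fit of all libraries, and Trp53 did so in a fit of the 2 groups alone (adjusted p = 0.031). Trp53 was at 21.3 and 22.1 FPKM in DMSO and at 21.1 and 15.9 FPKM in 5C, where 5C library 2 alone was low (log2 fold change -0.31 ± 0.20, adjusted p = 0.483). Mdm2 was at 25.0 and 24.4 FPKM in DMSO and 24.5 and 21.8 FPKM in 5C (log2 fold change -0.17 ± 0.18, adjusted p = 0.706). Ccng1 was at 144 and 145 FPKM in DMSO and 141 and 139 FPKM in 5C (log2 fold change -0.12 ± 0.20, adjusted p = 0.831).

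**Figure D2:**
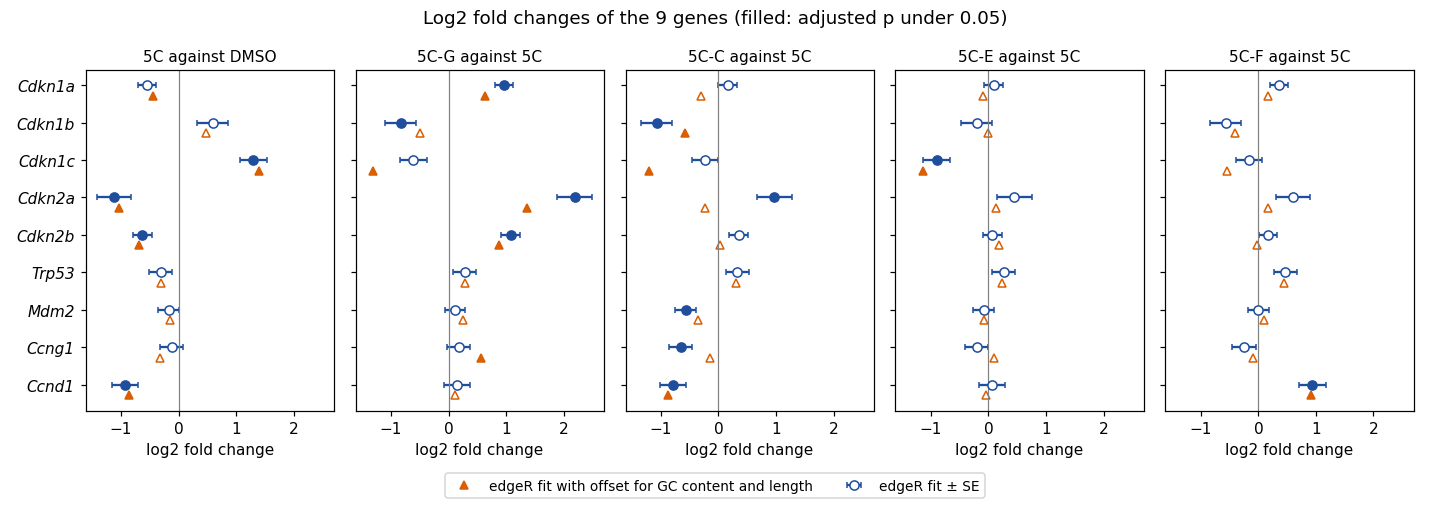
Log2 fold change (horizontal axis) of the 9 genes in the 5 tested comparisons. Circles are the edgeR fit with its SE, triangles the same fit offset for GC content and gene length, and filled symbols have an adjusted p under 0.05. In 5C-C against 5C the circle of Cdkn2a stands at 0.97 and its triangle at -0.24, while in 5C-G against 5C both stand to the right of 0, at 2.19 and 1.37.

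The next comparisons asked which levels depend on each compound of 5C. All of them share the same 5C libraries, so that they are not independent of each other or of 5C against DMSO. Without GSK429286A, Cdkn2a, Cdkn2b and Cdkn1a rose from their levels in 5C and had their highest values of all groups, and Cdkn1b fell. Thus 3 of the 9 genes rose, against 14.0% of all tested genes, and 1 fell, against 11.5%.

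The 5C-G libraries held Cdkn2a at 81.4 and 105 FPKM, a log2 fold change of 2.19 ± 0.31 from 5C (4.56-fold, adjusted p = 8.84e-05). Both 5C-G libraries also lay above both DMSO libraries, a difference that was not tested. Cdkn2b was at 83 and 79.1 FPKM, a log2 fold change of 1.08 ± 0.16 (2.12-fold, adjusted p = 0.000167). Cdkn1a was at 75.5 and 69.9 FPKM, a log2 fold change of 0.96 ± 0.16 (1.94-fold, adjusted p = 0.00053). These 3 genes passed with each library left out in turn, with an adjusted p of at most 0.00505 for Cdkn2a, 0.00988 for Cdkn2b and 0.0179 for Cdkn1a, and they passed with the GC and length offset, which lowered the log2 fold changes to 1.37, 0.88 and 0.64. In 5C-G, 9 of the 10 macrophage markers rose, beside 14.0% of all tested genes. Of the 10 stellate cell and fibroblast markers 5 rose and 3 fell, and of the 6 hepatocyte markers 1 rose and 4 fell. The part of these cell types in these differences was not tested.

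Cdkn1b was at 17.8 and 12.1 FPKM in 5C-G and lower than in 5C (log2 fold change -0.83 ± 0.27, adjusted p = 0.0296). It did not pass without 5C library 1 (adjusted p = 0.1), 5C library 2 (0.105) or 5C-G library 2 (0.219), nor with limma (log2 fold change -0.93, adjusted p = 0.0501) or the GC and length offset (-0.49, adjusted p = 0.0964). Cdkn1c was at 7.21 and 7.89 FPKM, below both 5C libraries and above both DMSO libraries. Its log2 fold change of -0.61 ± 0.23 did not pass in edgeR (adjusted p = 0.0656) or in a fit of the 2 groups alone (0.081). It passed with DESeq2 (0.0415), limma (0.0204), no filter on low counts (0.0418), total counts only (0.0246) and the offset, which gave -1.31 (0.00123), and with 1 library left out its adjusted p was 0.0897 to 0.272. For Mdm2 (28.4 and 17.7 FPKM), Ccng1 (165 and 124 FPKM) and Ccnd1 (14.4 and 8.32 FPKM), 5C-G library 1 was high and library 2 low, on both sides of the 5C libraries. Their log2 fold changes were 0.11 ± 0.18, 0.18 ± 0.20 and 0.15 ± 0.23, and none passed, although Ccng1 did so with the offset (log2 fold change 0.56, adjusted p = 0.00791). Trp53 was at 21.5 and 19.5 FPKM, with a log2 fold change of 0.28 ± 0.20 (adjusted p = 0.333).

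**Figure D3:**
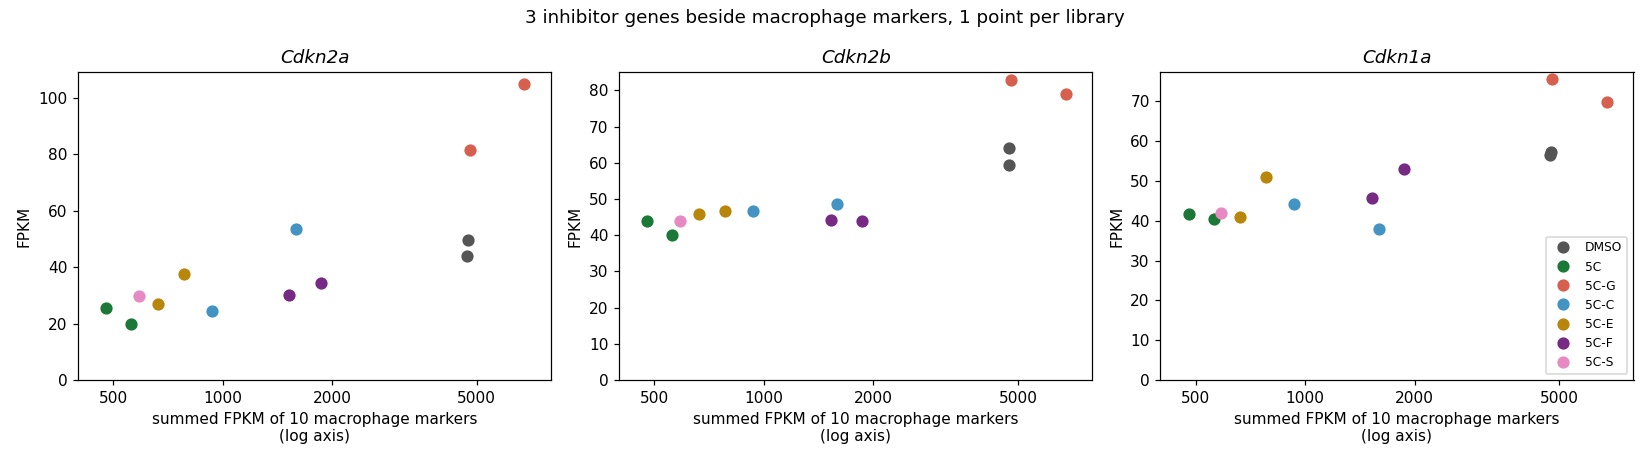
FPKM of Cdkn2a, Cdkn2b and Cdkn1a (vertical axes, linear from 0) against the summed FPKM of the 10 macrophage markers (horizontal axis, logarithmic), 1 point per library, coloured by group. DMSO and 5C-G hold the highest marker sums, from 4708 to 6763, and the other groups lie between 478 and 1866.

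The plot of macrophage markers shows the 3 genes that rose in 5C-G, for which DMSO ranked second. High levels in these groups therefore follow from the choice of genes, and the plot is no test of a link with the markers. The other members were not plotted. For Cdkn2b and Cdkn1a, the 4 libraries of DMSO and 5C-G, which had the highest marker sums, also had the 4 highest levels. For Cdkn2a, 5C-C library 2, at 53.7 FPKM, lay above both DMSO libraries.

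Without CID755673, the p53 targets Mdm2 and Ccng1, the cyclin gene Ccnd1 and the inhibitor Cdkn1b fell. Cdkn2a passed as higher, with only 5C-C library 2 above both 5C libraries. Mdm2, Ccng1 and Cdkn2a did not pass with the GC and length offset. Thus 4 of the 9 genes were lower, against 18.6% of all tested genes, and 1 was higher, against 17.2%. Leaving out 1 library gave between 0 and 4 passing genes, with 0 when 5C-C library 2 was left out, 1 without 5C library 2 and 3 without 5C library 1.

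Mdm2 was at 13.9 and 13.8 FPKM in 5C-C, below every library of the other groups (log2 fold change from 5C -0.57 ± 0.18, adjusted p = 0.0185). Ccng1 was at 92.2 and 65.8 FPKM, below both 5C libraries (log2 fold change -0.66 ± 0.20, adjusted p = 0.0167). Neither held with the GC and length offset, where the log2 fold changes were -0.36 (adjusted p = 0.0837) and -0.14 (adjusted p = 0.5), and leaving out 1 library gave an adjusted p of 0.0635 to 0.131 for Mdm2 and 0.00866 to 0.169 for Ccng1. Trp53 itself was at 18.0 and 23.3 FPKM, overlapping with 5C, with a log2 fold change of 0.33 ± 0.20 (adjusted p = 0.223).

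Ccnd1 was at 7.19 and 4.3 FPKM in 5C-C, the lowest of the 7 groups. Its log2 fold change of -0.79 ± 0.23 passed (adjusted p = 0.0134) and was -0.88 with the offset (adjusted p = 0.00518), but it did not pass without 5C library 2 (adjusted p = 0.107) or 5C-C library 2 (0.173). Cdkn1b was at 16.3 and 8.31 FPKM, a log2 fold change of -1.07 ± 0.27 (2.10-fold lower, adjusted p = 0.00486), which was -0.59 with the offset (adjusted p = 0.035) and did not pass without 5C-C library 2 (adjusted p = 0.0804). Both genes were lower in 5C-C library 2 than in library 1.

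Cdkn2a was at 24.6 FPKM in 5C-C library 1, within the 5C range, and at 53.7 FPKM in library 2. The log2 fold change of 0.97 ± 0.30 (adjusted p = 0.0168) rested on library 2: without it the value was 0.26 (adjusted p = 0.517), without 5C library 2 the adjusted p was 0.126, with limma 0.127 and in a fit of the 2 groups alone 0.056, and with the offset the direction reversed to -0.24 (adjusted p = 0.454). Cdkn2b was at 46.6 and 48.7 FPKM (log2 fold change 0.35 ± 0.16, adjusted p = 0.105, and 0.0258 with DESeq2) and Cdkn1a at 44.2 and 38.0 FPKM (0.16 ± 0.16, adjusted p = 0.469). Cdkn1c was at 8.82 and 10.5 FPKM, with a log2 fold change of -0.23 ± 0.23 (adjusted p = 0.481) that became -1.21 with the offset (adjusted p = 0.00182). In 5C-C, 7 of the 10 macrophage markers rose and 1 fell, 4 of the 10 stellate cell and fibroblast markers rose and 5 fell, and 4 of the 6 hepatocyte markers fell, and their part in these values was not tested.

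Without ETC-1002, 1 of the 9 genes passed the test. Cdkn1c fell to 7.88 and 6.44 FPKM, a log2 fold change of -0.90 ± 0.24 (1.86-fold lower, adjusted p = 0.0478), so that 1 gene was lower, against 1.76% of all tested genes, and 0 were higher, against 1.18%. In edgeR 1 of the 9 had an unadjusted p under 0.05, and DESeq2 likewise called 1. Both 5C-E libraries lay below both 5C libraries and above both DMSO libraries, and the adjusted p was 0.108 to 0.567 with 1 library left out and 0.0143 with the GC and length offset. This single call was lost with limma (log2 fold change -0.75, adjusted p = 0.058) and with total counts only (-0.83, adjusted p = 0.0679). The log2 fold changes of the other 8 genes ran from -0.20 to 0.45, the highest being Cdkn2a at 27.0 and 37.7 FPKM (0.45 ± 0.30, adjusted p = 0.538). Cdkn1b, at 27.6 and 25.3 FPKM, was below both 5C libraries, with a log2 fold change of -0.20 ± 0.27. Cdkn1a was at 40.9 and 51.0 FPKM, Cdkn2b at 45.9 and 46.6 FPKM, Trp53 at 21.8 and 24.8 FPKM, Mdm2 at 23.9 and 22.1 FPKM, Ccng1 at 137 and 118 FPKM and Ccnd1 at 10.9 and 13.5 FPKM. In 5C-E, 4 of the 6 hepatocyte markers fell.

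Without forskolin, Ccnd1 rose to 19.1 and 20.6 FPKM, a log2 fold change of 0.94 ± 0.23 from 5C (1.92-fold, adjusted p = 0.0184). These values lay within the range of the DMSO libraries, 18.8 and 21.3 FPKM. Of the 9 genes 1 was higher, against 5.69% of all tested genes, and 0 were lower, against 4.98%, with 4 at an unadjusted p under 0.05 in edgeR and 1 called by DESeq2. The offset left Ccnd1 at 0.91 (adjusted p = 0.0101), and leaving out 1 library gave log2 fold changes of 0.86 to 1.03 with an adjusted p of 0.0572 to 0.159, while limma gave 0.79 (adjusted p = 0.0918). Cdkn1b was at 22.3 and 13.7 FPKM, below both 5C libraries, without passing (log2 fold change -0.57 ± 0.27, adjusted p = 0.186, and 0.0424 without the filter). Cdkn2a was at 30.1 and 34.3 FPKM (0.60 ± 0.30, adjusted p = 0.207, and 0.0359 without the filter and 0.041 in a fit of the 2 groups alone) and Cdkn1a at 45.8 and 53 FPKM (0.36 ± 0.16, adjusted p = 0.165), each above both 5C libraries. Trp53 had its highest value, 28.5 FPKM, in 5C-F library 2, beside 19.4 FPKM in library 1 (log2 fold change 0.47 ± 0.20, adjusted p = 0.15). Cdkn1c (11.6 and 9.58 FPKM), Cdkn2b (44.3 and 44.0 FPKM), Mdm2 (21.8 and 21.3 FPKM) and Ccng1 (129 and 89.1 FPKM) had log2 fold changes of -0.16, 0.17, 0.00 and -0.25. In 5C-F, 8 of the 10 macrophage markers, 5 of the 6 hepatocyte markers and 3 of the 5 cholangiocyte markers rose, and 3 of the 10 stellate cell and fibroblast markers fell.

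The single 5C-S library allows no test of Salidroside. Its log2 fold changes from 5C ran from -0.29 (Cdkn1b, 23.8 FPKM) to 0.39 (Cdkn2a, 29.9 FPKM), and 0 of the 9 went beyond 1 in either direction, as 18.9% of all tested genes did. Cdkn1a (41.9 FPKM), Cdkn1c (11.5 FPKM) and Trp53 (23.0 FPKM) differed from the 5C mean by 0.01, -0.16 and 0.30 on the log2 scale. The differences were 0.05 for Cdkn2b (44.0 FPKM), -0.13 for Mdm2 (21.3 FPKM), -0.27 for Ccng1 (117 FPKM) and -0.25 for Ccnd1 (9.42 FPKM).

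Set in order of mean FPKM, some neighbouring groups overlapped in their libraries and others did not, with at most 2 libraries in each. For Cdkn1a, 5C-G (72.7 ± 3.98, SD, n = 2) stood above DMSO (56.9 ± 0.538), which stood above 5C-F (49.4 ± 5.1), and the remaining groups overlapped with their neighbours down to 5C (41.1 ± 0.95). Cdkn2b ran from 5C-G (81.0 ± 2.74) and DMSO (61.8 ± 3.42) to a narrow band of 42.1 to 47.7 in the other 5 groups, where each was apart from the next except 5C-S and 5C. Cdkn1b ran from 5C (28.8 ± 0.487) through 5C-E (26.4 ± 1.6) and 5C-S (23.8) to DMSO (18.2 ± 0.782), each apart from the next, and DMSO overlapped with 5C-F, 5C-F with 5C-G, and 5C-G with 5C-C. For Cdkn2a, 5C-G (93.1 ± 16.6) stood apart from DMSO (46.8 ± 4.03), and DMSO overlapped with 5C-C (39.2 ± 20.6). For Ccnd1, DMSO (20 ± 1.79) and 5C-F (19.9 ± 1.02) overlapped with each other and stood apart from 5C-E (12.2 ± 1.79), while 5C, 5C-S (9.42) and 5C-C (5.75) each stood apart from the next. For Cdkn1c, 5C (12.7 ± 1.54) stood just above 5C-S (11.5), and DMSO (4.92 ± 0.812) stood below 5C-E (7.16 ± 1.01). For Mdm2 the 4 highest groups overlapped in turn, for Ccng1 the highest pair (5C-G and DMSO) did so, and 5C-C (13.9 ± 0.0858 for Mdm2, 79.0 ± 18.7 for Ccng1) came last. Among the groups of Trp53, means ran only from 18.5 ± 3.63 (5C) to 23.9 ± 6.46 (5C-F).

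Other genes of the pathway were counted in lists that do not hold the 9 members. The counts are to be read against the shares of all tested genes, which for rises and falls were 2.25% and 4.09% in 5C against DMSO, 14.0% and 11.5% in 5C-G, 17.2% and 18.6% in 5C-C, 1.18% and 1.76% in 5C-E, and 5.69% and 4.98% in 5C-F. Of 23 other p53 target genes, 2 fell in 5C against DMSO (8.7%, against 4.09%) and 0 rose. In 5C-G 8 rose (34.8%, against 14.0%) and 3 fell (13%, near the 11.5% of all genes), with Bax, a promoter of apoptosis (18.2 to 53.6 FPKM, log2 fold change 1.70 ± 0.30, adjusted p = 0.00065), and Phlda3, an inhibitor of Akt signalling (43.6 to 125 FPKM, 1.67 ± 0.22, adjusted p = 6.38e-05), at the head. In 5C-C 7 rose and 7 fell (30.4% each, against 17.2% and 18.6%), and 9 in place of 14 passed with the GC and length offset. Bax was at 20.2 and 16.2 FPKM in 5C and at 30.8 and 63.4 FPKM in 5C-C (log2 fold change 1.55 ± 0.30, adjusted p = 0.000745). Without 5C-C library 2 the value was 0.89 (adjusted p = 0.0235), and with the offset it was 0.32 (adjusted p = 0.245). The DNA polymerase gene Polk fell from 6.67 to 1.81 FPKM (log2 fold change -1.72 ± 0.29, adjusted p = 0.00026) and the receptor gene Eda2r from 6.88 to 2.14 FPKM (-1.53 ± 0.24, adjusted p = 0.000208). The offset took these to -1.02 and -0.74, and those of Bax and Phlda3 in 5C-G to 0.88 and 0.99, all still passing. The medians of the list were -0.25 for 5C against DMSO, 0.36 for 5C-G and -0.12 for 5C-C, beside 0.01, -0.01 and 0.00 for all tested genes. In 5C-E 0 of the 23 passed in edgeR, with 5 at an unadjusted p under 0.05 and 1 called by DESeq2, and in 5C-F 2 rose (8.7%, against 5.69%) and 1 fell (4.35%, against 4.98%). With the offset 1 passed in 5C-E, and in a fit of the 2 groups alone 11 passed in 5C against DMSO. Leaving out 1 library gave 0 passing in 5C against DMSO, 7 in 5C-G without 5C library 1 (up to 13 without another), and 0 in 5C-F without 5C library 2 (1 without 5C library 1 or 5C-F library 2).

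Among 11 regulators of p53, the genes that passed were all lower: 1 in 5C against DMSO (Hipk2, a kinase of p53, 2.84 to 1.3 FPKM), 6 in 5C-C, 3 in 5C-G, 2 in 5C-F and 0 in 5C-E, where 3 had an unadjusted p under 0.05 and DESeq2 called 1. These are shares of 9.09% in 5C against DMSO (4.09% of all genes), 54.5% in 5C-C (18.6%), 27.3% in 5C-G (11.5%) and 18.2% in 5C-F (4.98%). With the offset 3 passed in 5C-C and 1 in 5C-F, and Atr, which had passed in 5C-C at -0.98 ± 0.30 (adjusted p = 0.0167), turned to 0.42 (adjusted p = 0.231). The kinase gene Atm, which signals DNA breaks to p53, was at 0.994 and 1.08 FPKM in 5C, 0.472 and 0.146 FPKM in 5C-G (log2 fold change -1.66 ± 0.38, adjusted p = 0.004) and 0.237 and 0.165 FPKM in 5C-C (-2.22 ± 0.39, adjusted p = 0.000379). The 5C-G libraries were unequal, and the value was -2.61 without library 1 and -1.10 without library 2. With the offset the 5C-C value was -1.30, and on the log2(FPKM + 1) scale of limma, which understates changes of low genes, the values were -0.65 and -0.76, all passing. Mdm4, the partner of Mdm2, was at 5.48 FPKM in 5C and 2.25 in 5C-C (log2 fold change -1.12 ± 0.25, adjusted p = 0.00247), which did not pass with the GC and length offset (adjusted p = 0.88). With 1 library left out the list gave 1 to 5 genes in 5C-G (1 without 5C library 1 or 5C-G library 2, 5 without 5C-G library 1), 3 in 5C-C without 5C library 1 or 5C-C library 2, 0 in 5C-F without any 1 of its 4 libraries, and 0 in 5C against DMSO without 5C library 1 or either DMSO library.

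In the G1 to S phase machinery, 0 of 20 genes passed for 5C against DMSO in edgeR, with 3 at an unadjusted p under 0.05 and 1 called by DESeq2. The remaining INK4 inhibitors rose in 5C-G and 5C-C. Cdkn2d (p19Ink4d) was at 8.44 and 9.51 FPKM in 5C, 17.9 and 26.2 FPKM in 5C-G (log2 fold change 1.45 ± 0.29, adjusted p = 0.00159) and 19.0 and 29.0 FPKM in 5C-C (1.59 ± 0.29, adjusted p = 0.000486). Cdkn2c (p18Ink4c) was at 7.18 and 6.97 FPKM in 5C and 12.6 and 15.2 FPKM in 5C-G (log2 fold change 1.12 ± 0.20, adjusted p = 0.000894). For both genes the libraries did not overlap with those of 5C, and both passed under every alternative run, while the offset took the values of Cdkn2d to 0.80 in 5C-G and 0.69 in 5C-C. Cdk4, the kinase they inhibit, rose in 5C-C as well, from 53.2 and 52.4 FPKM to 87.8 and 129 FPKM (log2 fold change 1.21 ± 0.21, adjusted p = 0.000361). In 5C-G it was at 75.2 and 87.3 FPKM (0.77 ± 0.21, adjusted p = 0.012), which did not pass with limma (0.0519) or without either 5C library (0.0875 and 0.0963) or 5C-G library 2 (0.129). In all, 5 of 20 rose and 1 fell in 5C-G (25% and 5%, against 14.0% and 11.5% of all genes), 7 rose and 5 fell in 5C-C (35% and 25%, against 17.2% and 18.6%), 2 fell in 5C-F (Ccnd2 and E2f3, 10% against 4.98%) and 0 passed in 5C-E, where 2 had an unadjusted p under 0.05 and DESeq2 called 1. With the GC and length offset 7 in place of 12 passed in 5C-C, where Cdk6, which had passed at -0.55 ± 0.16 (adjusted p = 0.0118), turned to 0.34 (adjusted p = 0.114), and 1 passed in 5C against DMSO. The 5C-G count was 3 without either 5C library and 2 without 5C-G library 2, and the 5C-F count was 0 without any 1 of its libraries.

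Those proliferation genes that passed were all higher. In 5C-C 20 of 20 rose, against 17.2% of all genes, in 5C-G 12 (60%, against 14.0%) and in 5C-E 8 (40%, against 1.18%). In 5C-F 1 rose (Mcm5, 5%, near the 5.69% of all genes) and in 5C against DMSO 1 (Ccnb2, 5%, against 2.25%), with 2 in each with the GC and length offset, and the other 19 did not pass. Their log2 fold changes had a median of 1.76 (5C-C), 1.03 (5C-E), 0.82 (5C-G) and 0.31 (5C-F) against 5C and of -0.25 for 5C against DMSO. Mki67, which encodes the Ki67 antigen of dividing cells, was at 1.28 and 1.41 FPKM in DMSO, 1.14 and 0.699 FPKM in 5C, 1.89 and 1.96 FPKM in 5C-G, 2.64 and 2.41 FPKM in 5C-E, 3.23 and 3.41 FPKM in 5C-C, 1.12 and 1.36 FPKM in 5C-F and 1.2 FPKM in 5C-S. It rose from 5C in 5C-C (log2 fold change 2.02 ± 0.24, adjusted p = 2.69e-05), 5C-E (1.39 ± 0.24, adjusted p = 0.00251, and 0.0793 without 5C library 2) and 5C-G (1.2 ± 0.24, adjusted p = 0.00151). In 5C-C the largest changes were in Birc5 (survivin, 0.972 to 6.23 FPKM, log2 fold change 2.85 ± 0.36, adjusted p = 3.85e-05) and the mitotic kinase gene Aurkb (1.07 to 6.16 FPKM, 2.69 ± 0.32, adjusted p = 2.43e-05). In 5C-G, where Cdkn2a, Cdkn2b and Cdkn1a were highest, Birc5 rose as well (log2 fold change 1.62 ± 0.35, adjusted p = 0.00264). With 1 library left out the counts were 18 to 20 in 5C-C, 7 to 13 in 5C-G (7 without either 5C library or 5C-G library 2) and 1 to 7 in 5C-E (1 without 5C library 2 or 5C-E library 2, 3 without 5C library 1), and 0 in the remaining comparisons.

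**Figure D4:**
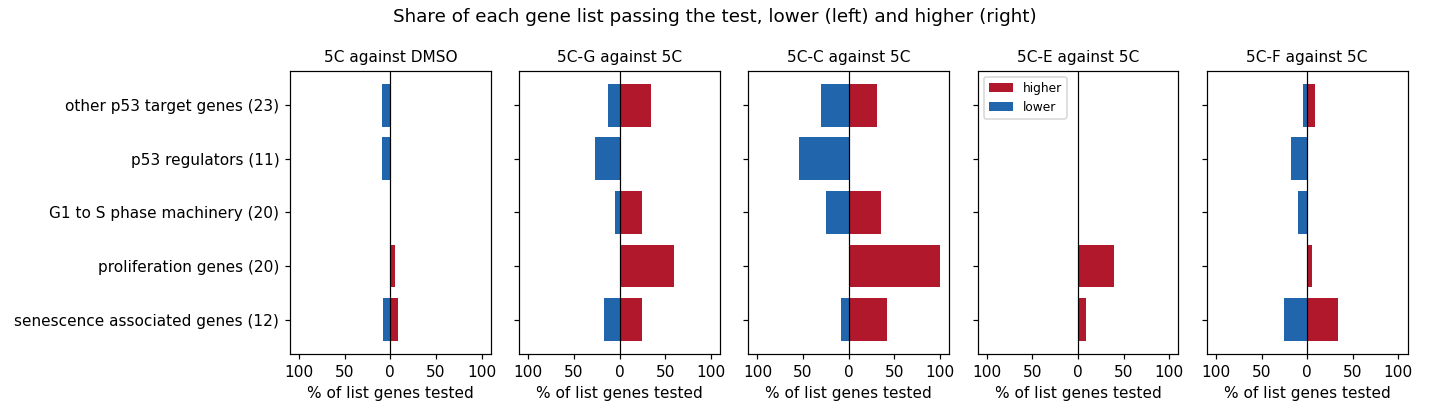
Share of each gene list (percent of list genes tested, number in brackets) that passed at an adjusted p under 0.05, lower to the left and higher to the right of 0, in the 5 tested comparisons. The proliferation genes reach 20 of 20 higher in 5C-C, and the p53 regulators that pass are all lower.

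Of 12 senescence associated genes, 1 rose and 1 fell in 5C against DMSO, 3 rose and 2 fell in 5C-G, 5 rose and 1 fell in 5C-C, 1 rose in 5C-E, and 4 rose and 3 fell in 5C-F. Set against all genes, the falls in 5C-G (16.7%, against 11.5%) and 5C-C (8.33%, against 18.6%) were near or below the background, and the rises were 25% in 5C-G (against 14.0%), 41.7% in 5C-C (17.2%) and 33.3% in 5C-F (5.69%), with falls of 25% in 5C-F (4.98%). The single rises in 5C against DMSO and 5C-E and the single fall in 5C against DMSO were each 8.33% of the list. In 5C against DMSO 4 passed with the GC and length offset and 6 in a fit of the 2 groups alone. Timp1, an inhibitor of matrix metalloproteinases, rose in 5C-C from 257 to 2228 FPKM (log2 fold change 3.28 ± 0.24, adjusted p = 3.52e-07, and 2.65 with the offset) and in 5C-G to 607 FPKM (1.39 ± 0.22, adjusted p = 0.000327). Igfbp5, which binds insulin-like growth factors, moved the other way, from 7.95 FPKM in 5C to 0.73 FPKM in 5C-G (log2 fold change -3.30 ± 0.30, adjusted p = 1.12e-06) and 1.49 FPKM in 5C-F (-2.32 ± 0.28, adjusted p = 0.000227). Glb1, the gene of the enzyme behind β-galactosidase staining of senescent cells, was at 44.0 and 42.2 FPKM in DMSO and 43.9 and 44.3 FPKM in 5C, so that both groups lay within a narrow range, and it rose to 67.9 and 83.2 FPKM in 5C-C (log2 fold change 0.94 ± 0.19, adjusted p = 0.00107). Lmnb1, a lamin gene that falls in many senescent cells, was at 6.13 and 5.78 FPKM in DMSO and 5.99 and 5.79 FPKM in 5C. Leaving out 1 library changed the counts to 0 or 1 in 5C against DMSO, 3 in 5C-G (without either 5C library or 5C-G library 2), 3 in 5C-C (without either 5C library), 0 in 5C-E (without either 5C library or 5C-E library 2) and as few as 2 in 5C-F (without 5C library 2, and 4 without 5C library 1 or 5C-F library 2).

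As a description, the genes with the most similar course over the 13 libraries were found by Pearson's r of log2 CPM among 12509 genes with a mean of at least 1 FPKM. The points share libraries and fall into 7 groups, so r carries no p. Cdkn2a was most like B3gnt8 (r = 0.97), Rac3 (0.96) and Zyx (0.95), and Cdkn2b was most like Ctsb (0.97), Slc31a2 (0.96) and Hexa (0.96), of which Ctsb and Hexa encode lysosomal enzymes. Cdkn1a was most like Wdr1, Trpv2 and Cd5l (0.96 each). Cd5l is 1 of the 10 macrophage markers, and no gene named here for the other members is among these markers. Cdkn1b was closest to Zfp955a (0.99), Smc6 (0.97) and Zfp37 (0.96), Cdkn1c to Sar1b (0.94), Gsdme (0.94) and Rab9 (0.92), and Ccnd1 to Myo1e (0.97), Ddx21 (0.94) and Ampd3 (0.93). Mdm2 followed Epb41l2 (0.96), Ddx5 (0.95) and Lrrfip1 (0.95), and Ccng1 followed Vgll3 (0.96), Rab21 (0.93) and Nudcd3 (0.92). Trp53 had the weakest match, with Ikbke (0.89), Crtc2 (0.89) and BC037034 (0.88).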

How the data were processed

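The authors sequenced paired-end libraries on an Illumina NovaSeq6000, aligned them to GRCm39, and deposited a table of counts and another of FPKM. The counts, as deposited, are whole and not normalized. The deposited FPKM are these counts scaled by column total and gene length, as the ratio of count to FPKM gave 1 length per gene within 0.2% in 27140 of 27141 genes. The submitters' processing notes name featureCounts, Subread and DESeq2, and the annotation release is not given in the sources used here. The study used DESeq for its comparisons. No column of sample values was left unused.

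Groups were taken from the sample labels. The members and gene lists were chosen with earlier results of these data known. Counts were tested with edgeR 4.0.16 in R 4.3.3 (TMM factors, filterByExpr by group with a minimum count of 10, glmQLFit and glmQLFTest) in a single fit of all 13 libraries with group means and 6 residual degrees of freedom, in which 19884 genes were tested (common BCV 0.261). The p-values were adjusted by Benjamini-Hochberg over all genes, and a gene passed at an adjusted p under 0.05. SEs were derived from the fold change and its F statistic. The single 5C-S library was compared without a p. The scripts were tested on simulated data. Alternatives were DESeq2 1.42.0, total counts without TMM, no filter on low counts, a fit of the 2 groups compared alone, limma 3.58.1 on log2(FPKM + 1), an offset for GC content and length, an added threshold of a log2 fold change beyond 1, and leaving out each library in turn. Their effect on the gene lists was computed after the data had been seen.

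All 9 members were named. From each list, counts were given for every comparison and at most the 3 genes with the largest change among those passing were named, beside a fixed set of related genes (Cdkn2c, Cdkn2d, Mdm4, Ccnd2, Ccnd3, Cdk4, Cdk6, Rb1, Mki67, Top2a, Glb1, Lmnb1 and Igfbp3), of which those that a result turns on are printed. Coordinates come from GENCODE on GRCm39 and promoter sequences from RefSeq on GRCm38.p6, matched by symbol for 7 of the 9 genes. A further hepatocyte marker is not reported here.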

Additional observations from a re-analysis of the deposited data

How the results depend on the processing

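Every value rests on 2 libraries per group, or on 1 for 5C-S, and the spread was shared over all groups. Depth limited the values less than this spread did, and the GC and length offset, with all libraries kept, also changed calls. Among the 270 member values under settings that kept all libraries, 226 kept direction and side of the threshold, 17 came to pass, 13 no longer passed and 14 changed sign. Among 180 values with 1 library left out, 134 kept both, 36 no longer passed and 10 changed sign. No paired analysis was possible because the columns carry no replicate number that can be matched to the sample labels. Scaling by total counts moved the median log2 fold change of all genes to -0.14 in 5C-G, -0.15 in 5C-C and -0.11 in 5C-F against 5C. Where a setting changed a result, the cause was not tested.

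For 5C against DMSO, where 4 members passed, 2 did so with limma on FPKM, with total counts only and with a log2 fold change beyond 1 required, 7 did so in a fit of the 2 groups alone, and 0 to 1 with 1 library left out. The genes passing numbered 5028 in the fit of the 2 groups alone and 649 to 674 with 1 library left out, beside 1261. For 5C-G, where 4 members passed, 2 had a log2 fold change beyond 1, and 3 to 4 passed with 1 library left out. Its genes passing were 5085, of which 2607 had such a fold change, and 2272 to 6343 with 1 library left out. For 5C-C, where 5 members passed, the count was 3 with the GC and length offset, Cdkn1c among them, and 1 with the fold required. Its genes passing were 7115, with 4011 under the fold and 4569 to 7226 with 1 library left out. For 5C-E, the 1 member became 0 with limma, total counts only, the fold required or any 1 library left out. Its 584 genes passing became 1088 with DESeq2, 1097 without the filter, 2319 in the fit of the 2 groups alone and 140 to 434 with 1 library left out. For 5C-F, the 1 member became 0 with limma, with the fold required or with any 1 library left out, 2 in the fit of the 2 groups alone and 3 without the filter. Its 2122 genes passing became 3197 with DESeq2, 1135 with limma, 962 with the fold required and 309 to 1378 with 1 library left out.

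Sign changes were as follows, and only that of Cdkn2a in 5C-C (-0.24 with the offset) touched a member that passed. In 5C-G, Mdm2 was at -0.04 with limma, -0.01 with total counts and between -0.16 and 0.34 with 1 library left out, and Ccnd1 at -0.01 with limma and between -0.19 and 0.42 with 1 library left out. In 5C-C, Cdkn1a was at 0.00 with limma and -0.30 with the offset, and Atr and Cdk6, other genes that had passed, were at 0.42 and 0.34 with the offset. In 5C-E, the offset gave -0.10 for Cdkn1a, 0.10 for Ccng1 and -0.04 for Ccnd1, and leaving out 1 library gave -0.08 to 0.27 for Cdkn1a and -0.09 to 0.24 for Ccnd1. In 5C-F, Cdkn2b was at -0.02 with the offset, Mdm2 at 0.02 with DESeq2, 0.00 without the filter and in the fit of the 2 groups alone, 0.09 with the offset and between -0.06 and 0.07 with 1 library left out, Cdkn1c between -0.35 and 0.01, and Ccng1 between -0.59 and 0.03.

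Counts of the gene lists also moved by over 1.5 times. In the fit of the 2 groups alone, 5C against DMSO gave 11 other p53 targets (2 before), 3 p53 regulators (1), 4 G1 to S genes (0), 5 proliferation genes (1) and 6 senescence genes (2), 5C-E gave 5 (0), 3 (0), 2 (0), 15 (8) and 5 (1), and 5C-F gave 7 p53 targets (3). With DESeq2, 5C-G gave 5 regulators (3), 5C-E 13 proliferation genes (8) and 5C-F 7 p53 targets (3). With limma, 5C against DMSO gave 0 p53 targets and 0 senescence genes (2 each), 5C-G 3 G1 to S genes (6), and 5C-F 1 p53 target (3), 1 regulator (2), 0 G1 to S genes (2), 0 proliferation genes (1) and 4 senescence genes (7). Total counts gave 0 p53 targets (2) and 1 senescence gene (2) in 5C against DMSO and 0 proliferation genes (1) in 5C-F. Without the filter, 5C-G had 5 regulators (3), 5C-E 2 senescence genes (1) and 1 G1 to S gene (0), 5C against DMSO 1 G1 to S gene (0), and 5C-F 6 p53 targets (3). A required fold left 9 p53 targets (14), 2 regulators (6), 7 G1 to S genes (12) and 2 senescence genes (6) in 5C-C, 1 regulator (3) and 2 G1 to S genes (6) in 5C-G, 0 p53 targets (2), 0 proliferation genes (1) and 0 senescence genes (2) in 5C against DMSO, and 1 regulator (2), 0 G1 to S genes (2), 0 proliferation genes (1) and 3 senescence genes (7) in 5C-F.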
